A study of Mus musculus with 6 samples.

Results

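The RNA of 6 MC38 tumors was sequenced in bulk, and 10 genes of MHC class II presentation were followed among the 33965 genes of the table. They were taken by gene symbol: H2-Aa, H2-Ab1, H2-Eb1, H2-DMa, H2-DMb1, H2-DMb2, H2-Oa, H2-Ob, Cd74 and Ciita. All 10 symbols were found. MC38 cells are an established line of mouse colon carcinoma, and they were inoculated subcutaneously into C57BL/6 mice. The PBS group holds 3 tumors of mice given PBS, and the GB2 group holds 3 tumors of mice given GB2, a prodrug of artesunate and MSA-2, an agonist of STING. The study's methods describe female mice that were 6 weeks old when bought. The labels give neither the age of the mice nor a time after treatment. They do not say that each tumor came from its own animal, so p-values measure the spread between these 6 tumors. The libraries summed to between 64764405 and 69878156 estimated counts in the PBS group and between 81210553 and 83690056 in the GB2 group. Among low values the count 4 was more frequent (7017 values) than 3 (2984) or 5 (2017), and 4 counts were taken as about 1 read pair, which the sources used here do not state. Markers of tumor epithelium (Epcam, Krt8, Krt18, Cdh1 and Cldn7) were low in these tumors, with Krt8 at 0 counts in GB2 tumor 1 and summed values between 2.60 and 7.74 CPM (counts scaled to library size, with TMM factors).

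MHC class II molecules carry peptides from the endosome to the surface of antigen-presenting cells, where CD4 T cells read them. An alpha and a beta chain pair in the endoplasmic reticulum with the invariant chain Cd74, which guards the groove until proteases cut it down to a short remnant called CLIP. H2-DM then exchanges CLIP for peptide, and H2-O restrains H2-DM. Ciita is the coactivator that switches these genes on through factors standing on their promoters. In tumors the class II genes are known from dendritic cells, macrophages and B cells, and interferon gamma can induce them in other cells too. The comparison asked whether tumors of GB2-treated mice differed from PBS tumors in the RNA of this pathway.

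The promoters of the class II genes are known for an X box, bound by the RFX factors, that lies upstream of a Y box, bound by NF-Y. They are shown as sequence only, and their part in the RNA levels below was not tested. The promoter table, made from RefSeq on GRCm38.p6, held 8 promoters of 7 of the 10 genes. Each entry runs from 250 bases before the start of a transcript to a little after it. Each line below gives 80 bases upstream of the start, 5′ to 3′ on the strand of the gene, with the letters GCAAC of the X box and TGATTGG of the Y box in capitals.
H2-Aa, chr17:34287849-34287928, minus strand: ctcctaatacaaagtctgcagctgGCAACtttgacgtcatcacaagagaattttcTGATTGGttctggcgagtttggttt
H2-Eb1, chr17:34305751-34305830, plus strand: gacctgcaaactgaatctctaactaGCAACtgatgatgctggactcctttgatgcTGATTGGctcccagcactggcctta
H2-Oa, chr17:34092279-34092358, plus strand: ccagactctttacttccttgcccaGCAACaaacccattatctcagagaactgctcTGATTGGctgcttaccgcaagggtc
H2-Ob, chr17:34238791-34238870, plus strand: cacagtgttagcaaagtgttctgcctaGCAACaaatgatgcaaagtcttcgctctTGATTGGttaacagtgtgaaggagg
H2-DMb1, chr17:34153073-34153152, plus strand: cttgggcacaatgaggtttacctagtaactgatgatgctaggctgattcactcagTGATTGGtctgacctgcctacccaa
H2-DMb2, chr17:34145102-34145181, plus strand: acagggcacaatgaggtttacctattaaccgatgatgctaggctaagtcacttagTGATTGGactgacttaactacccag

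The Y box letters TGATTGG, searched on both strands, were in 6 of the 8 promoters, 1 for each of 6 genes, and in 2568 of all 32851 promoters (7.82%). The promoters of H2-DMa did not hold them. GCAAC followed by TGATTGG on the same strand, with 20 to 40 bases between them, was in the promoters of H2-Aa, H2-Eb1, H2-Oa and H2-Ob, with a gap of 26, 25, 26 and 23 bases. The same arrangement was in 64 of all 32851 promoters (0.195%). GCAAC alone was in 35.2% of them. The Y box began between 45 and 92 bases before the start of the transcript, nearest in H2-Oa and farthest in H2-DMb2. The letters were chosen after the promoters had been read, and a match is a description of the sequence and not of binding. Only exact letters were counted, so a box with other letters would be missed, also in H2-DMb1 and H2-DMb2. H2-Oa and H2-Ob, whose promoters held GCAAC before TGATTGG, were at the detection limit in these tumors, as given below.

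None of the class II genes differed between GB2 and PBS tumors beyond the spread between tumors. In the edgeR quasi-likelihood test with Benjamini-Hochberg adjustment, 9 of the 10 genes passed the filter on low counts and 0 of them were called at an adjusted p below 0.05 and a fold of 2 or more. No gene of the table was called at that limit (0% of 19602), and 1360 genes had an unadjusted p under 0.05. A weaker limit, an unadjusted p below 0.05 and a fold of 2 or more, was passed by 913 genes (4.66%), none of them a class II gene. DESeq2 called 385 genes (1.96%), again none of them a class II gene. The groups did not overlap for 2996 genes (15.3%), and for 0 of the 9 class II genes. The median log2 fold change, GB2 minus PBS, was -0.03 over the 9 genes, with 4 above 0 and 5 below, and -0.02 over all genes tested.

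The tumors differed from each other far more than the groups did. The standard deviation of log2 CPM within a group had a median over the 9 genes of 2.1 in PBS tumors and 0.98 in GB2 tumors, against 0.46 and 0.24 over all genes tested. The median standard error of the log2 fold change was accordingly 0.93 for the class II genes and 0.34 for all genes tested. PBS tumor 3 had the lowest CPM of the 6 tumors for all 9 genes. The highest CPM was in PBS tumor 2 for 5 genes, in GB2 tumor 3 for 3 genes and in GB2 tumor 2 for H2-Ob. In bulk samples, fewer cells of a type and less RNA per cell cannot be told apart.

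**Figure D1:**
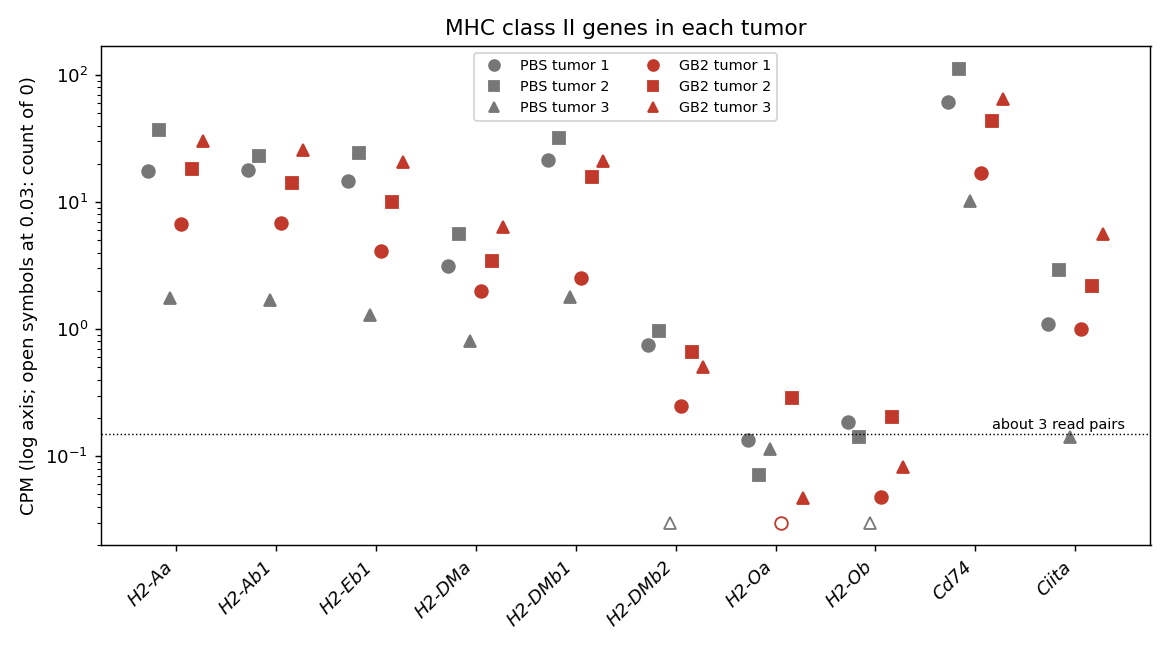
CPM of each class II gene (log axis) in PBS tumors (grey) and GB2 tumors (red), 1 symbol per tumor. The dotted line marks about 3 read pairs (12 counts), and open symbols mark a count of 0. PBS tumor 3 (grey triangle) lies lowest for H2-Aa, H2-Ab1, H2-Eb1, H2-DMa, H2-DMb1, H2-DMb2, H2-Ob, Cd74 and Ciita, and the groups overlap for every gene.

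H2-Aa and H2-Ab1 encode the alpha and beta chains of I-A, the classical class II molecule of C57BL/6 mice. H2-Aa (ENSMUSG00000036594, minus strand, chr17:34501718-34506797 in the positions of the table) was measured at 17.5, 37.0 and 1.77 CPM in PBS tumors 1, 2 and 3, and at 6.69, 18.1 and 30.2 CPM in GB2 tumors 1, 2 and 3. PBS tumors 2 and 3 were the highest and the lowest of the 6, so the GB2 tumors lay inside the PBS range, and the PBS values spanned 20.9-fold against 4.51-fold in the GB2 group. The means were 18.7 ± 17.7 CPM (SD, n = 3) in PBS and 18.3 ± 11.8 CPM in GB2 tumors, and the log2 fold change was -0.03 (SE 0.93, 95% interval -2.19 to 2.13, adjusted p = 0.994).

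H2-Ab1 (ENSMUSG00000073421, chr17:34476663-34488393) was measured at 17.8, 23.0 and 1.70 CPM in PBS tumors and at 6.90, 14.0 and 25.8 CPM in GB2 tumors. GB2 tumor 3 was the highest here, closely followed by PBS tumor 2, and the groups overlapped. The log2 fold change was 0.14 (SE 0.83, 95% interval -1.81 to 2.09, adjusted p = 0.968).

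H2-Eb1 (ENSMUSG00000060586, chr17:34524841-34535648) encodes the beta chain of I-E. Its CPM values were 14.6, 24.1 and 1.30 in PBS tumors and 4.14, 10.04 and 20.7 in GB2 tumors, a range of 18.5-fold. Again PBS tumor 2 stood highest and PBS tumor 3 lowest, and the log2 fold change was -0.20 (SE 0.92, 95% interval -2.35 to 1.96, adjusted p = 0.957). C57BL/6 mice are known to lack a working I-E alpha chain, and H2-Ea, which would encode it, had between 0 and 8 counts in each tumor. That is below the 12 counts, taken as about 3 read pairs, used here as the floor of detection.

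Cd74 (ENSMUSG00000024610, chromosome 18), the invariant chain, was measured at 60.7, 112 and 10.2 CPM in PBS tumors and at 17.02, 43.1 and 64.4 CPM in GB2 tumors. The order of the tumors was PBS 2, GB2 3, PBS 1, GB2 2, GB2 1 and PBS 3 from high to low, the same as for H2-Eb1, with both ends held by PBS tumors. The means were 61.0 ± 51.0 CPM (SD, n = 3) in PBS and 41.5 ± 23.7 CPM in GB2 tumors, and the log2 fold change was -0.56 (SE 0.78, 95% interval -2.38 to 1.27, adjusted p = 0.877). Leaving out PBS tumor 2 or 3 gave 0.23 or -1.06, and leaving out GB2 tumor 1 or 3 gave -0.18 or -1.02, so its size moved with single tumors of either group.

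Per transcript length, Cd74 was the most abundant of the 10 genes in each of the 6 tumors. Its FPKM values (fragments scaled to transcript length and library size) were 31.0, 64.2 and 5.88 in PBS tumors and 10.1, 24.5 and 38.0 in GB2 tumors. H2-DMb1 had the next highest FPKM in 5 of the 6 tumors, with a mean of 10.1 ± 8.66 FPKM (SD, n = 3) in PBS and 7.60 ± 5.59 FPKM in GB2 tumors. The 3 classical chains followed with mean levels between 4.58 and 6.33 FPKM in PBS and between 4.72 and 5.94 FPKM in GB2 tumors. Their SDs, between 3.07 and 5.63, are spreads between tumors and do not compare genes within a tumor. The ratio of H2-DMb1 to H2-Ab1 FPKM was 1.85, 2.12 and 1.62 in PBS tumors and 0.56, 1.70 and 1.25 in GB2 tumors. The order of these genes was not tested. H2-DMa had a mean of 0.84 ± 0.67 FPKM in PBS and 1.11 ± 0.64 FPKM in GB2 tumors. H2-DMb2, Ciita, H2-Oa and H2-Ob stood lowest, with mean levels of at most 0.30 FPKM in either group.

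The classical chains kept nearly the same proportions while their levels changed. The ratio of H2-Aa to H2-Ab1 FPKM was 0.67, 1.09 and 0.71 in PBS tumors and 0.66, 0.87 and 0.79 in GB2 tumors, so it varied 1.65-fold while H2-Aa itself varied 20.9-fold in CPM. The ratio of H2-Eb1 to H2-Ab1 varied 1.75-fold. Cd74 followed them less closely. Its FPKM relative to the summed FPKM of H2-Aa, H2-Ab1 and H2-Eb1 was 1.9, 2.15 and 3.39 in PBS tumors and 1.55, 1.67 and 1.34 in GB2 tumors. The groups did not overlap for this ratio, and the highest value was in PBS tumor 3, the tumor with the least class II RNA. The ratios were chosen after the values had been seen and are given with no test.

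H2-DMa and H2-DMb1 encode the alpha and beta chains of the peptide exchanger H2-DM. H2-DMa (ENSMUSG00000037649, chr17:34338515-34358075) was measured at 3.13, 5.59 and 0.81 CPM in PBS tumors and at 2.00, 3.46 and 6.35 CPM in GB2 tumors. It varied 7.88-fold, the least among the 3 classical chains, Cd74, H2-DMa and H2-DMb1, and GB2 tumor 3 and PBS tumor 2 were again the highest. Its log2 fold change was 0.31 (SE 0.69, 95% interval -1.30 to 1.92, adjusted p = 0.915). Its model overlaps that of Brd2 on the opposite strand, which had between 13266 and 27476 counts. The libraries mark strand, but how strand was used in counting is not given in the sources used here.

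H2-DMb1 (ENSMUSG00000079547, chr17:34372046-34379204) was measured at 21.5, 32.0 and 1.80 CPM in PBS tumors and at 2.51, 15.6 and 21.1 CPM in GB2 tumors. GB2 tumor 1 lay close to PBS tumor 3 for this gene, at 8.39-fold below GB2 tumor 3. The log2 fold change was -0.49 (SE 1.0, 95% interval -2.81 to 1.83, adjusted p = 0.910). The ratio of H2-DMb1 to H2-DMa FPKM was 14.2, 11.9 and 4.81 in PBS tumors and 2.59, 9.39 and 6.84 in GB2 tumors, a range of 5.49-fold. In these FPKM values the beta chain did not keep a fixed proportion to its alpha chain. The low ratios were in GB2 tumor 1 and PBS tumor 3, the 2 tumors with the least class II RNA. The 57 counts of H2-DMa in PBS tumor 3 and its overlap with Brd2, given above, limit the reading of this ratio.

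H2-DMb2 (ENSMUSG00000037548, chr17:34362281-34370529) is a near-identical neighbor of H2-DMb1, and reads shared by both could be assigned to either, so the split between them is uncertain. It had 44, 68 and 0 counts in PBS tumors against 21, 55 and 43 counts in GB2 tumors. The count of 0 in PBS tumor 3 allows up to 12 counts, or 0.17 CPM, for counting error only. The log2 fold change was -0.27 (SE 1.19, 95% interval -3.05 to 2.51, adjusted p = 0.956).

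H2-Oa and H2-Ob encode the chains of H2-O, the H2-DM inhibitor known from B cells and some dendritic cells. H2-Oa (ENSMUSG00000024334, chr17:34311314-34314208) had 8, 5 and 8 counts in PBS tumors and 0, 24 and 4 counts in GB2 tumors and did not pass the filter. H2-Ob (ENSMUSG00000041538, chr17:34457877-34468283) had 11, 10 and 0 counts in PBS tumors and 4, 17 and 7 counts in GB2 tumors. For both genes GB2 tumor 2 was the only tumor above 12 counts, so no difference was detectable at this depth. Of the B cell list, Ms4a1 was under 12 counts in all 6 tumors, while Cd79a had 22, 36 and 37 counts in PBS tumors and 28, 60 and 14 counts in GB2 tumors. Of its 8 genes 4 were tested, 0 of them were called by edgeR or DESeq2, and the groups overlapped for all 4.

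Ciita (ENSMUSG00000022504, chr16:10297923-10344290) encodes the class II transactivator. Its CPM values were 1.10, 2.92 and 0.14 in PBS tumors and 1.0, 2.18 and 5.59 in GB2 tumors, with GB2 tumor 3 highest and PBS tumor 3, at 10 counts, below the floor. It had the largest log2 fold change of the 9 genes, 1.07 (SE 0.99, 95% interval -1.23 to 3.37, adjusted p = 0.814). The groups overlapped, since PBS tumor 2 lay above GB2 tumors 1 and 2. The model of Ciita overlaps that of Dexi on the opposite strand, which had between 645 and 837 counts against 10 to 475 for Ciita. The fold rested on single tumors, at 0.20 without GB2 tumor 3 and 2.25 without PBS tumor 2. By the exact two-sided permutation test on CPM, whose smallest possible p is 0.1, p was 0.5 for Ciita and between 0.7 and 1 for the other 8 genes tested.

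**Figure D2:**
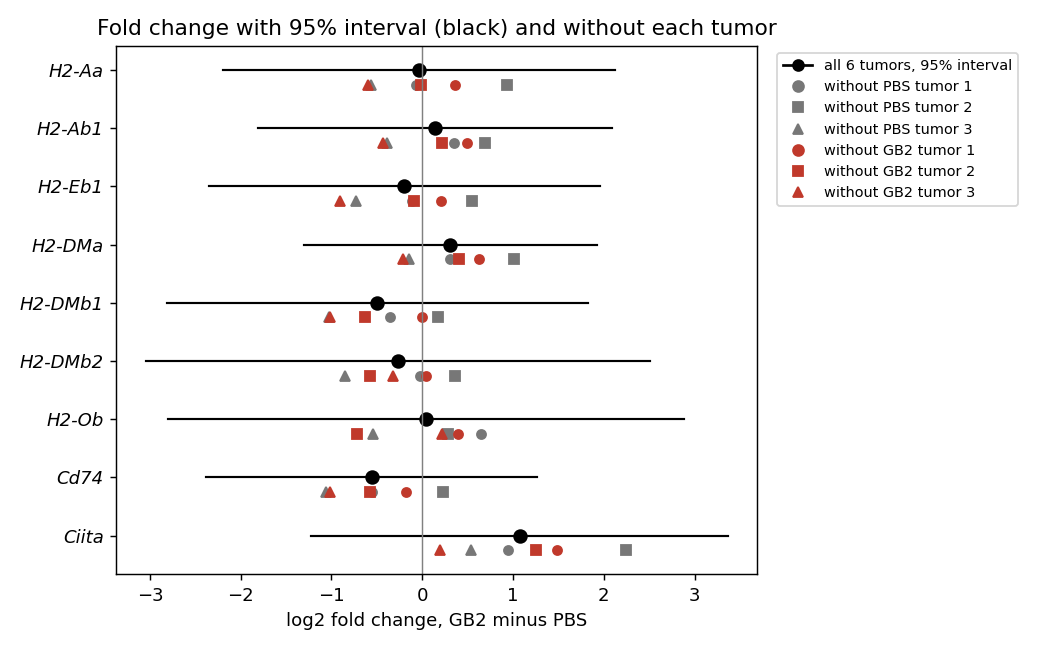
Log2 fold change, GB2 minus PBS, of the 9 tested class II genes from the edgeR fit, with the 95% interval as a black line. Smaller symbols give the fold change after leaving out the tumor named in the key. All intervals cross 0, and leaving out PBS tumor 2 moves the value of each gene upward, for Ciita from 1.07 to 2.25.

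Directions were not stable for most of the class II genes when tumors were left out. The sign changed for 5 of the 9 genes without PBS tumor 2, for 3 without PBS tumor 3, for 3 without GB2 tumor 1, for 2 without GB2 tumor 3, for 1 without GB2 tumor 2 and for none without PBS tumor 1. Ciita alone of the 9 kept its sign in each of these fits. The lowest adjusted p of any class II gene under any alternative tried was 0.483, for Cd74 without PBS tumor 3.

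Of the H2 genes followed, all 8 lie in 1 stretch of chromosome 17, from 34311314 to 34535648 in the positions of the table, which holds 18 genes, 14 of them tested. Between H2-DMb1 and H2-Ob lie Psmb9 and Psmb8, subunits of the immunoproteasome, and Tap1 and Tap2, the peptide transporter, which all serve class I presentation. Psmb9 was measured at 23.4, 28.0 and 0.72 CPM in PBS tumors and at 2.98, 11.0 and 31.4 CPM in GB2 tumors, a range of 43.6-fold. Tap1 was measured at 33.8, 43.3 and 6.39 CPM in PBS tumors and at 12.5, 36.0 and 83.3 CPM in GB2 tumors. PBS tumor 3 was the lowest and GB2 tumor 1 the next lowest for Psmb9, Psmb8, Tap1 and Tap2, as it was for the 9 class II genes. Brd2, a chromatin reader of broad expression that lies in the same stretch, was measured between 224 and 268 CPM in PBS and between 282 and 327 CPM in GB2 tumors, and PBS tumor 3 was not its lowest.

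**Figure D3:**
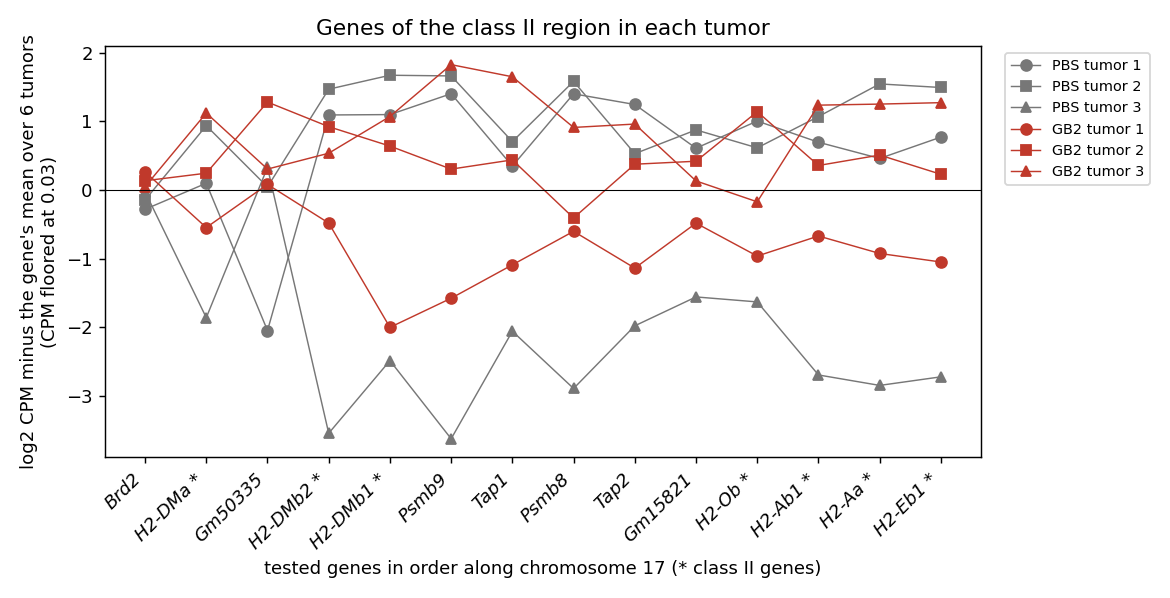
Log2 CPM of each tested gene between H2-Oa and H2-Eb1, as its difference from the mean of the gene over the 6 tumors, in the order of the genes along chromosome 17. Each line is a tumor, and stars mark class II genes. PBS tumor 3 lies lowest at H2-DMa and from H2-DMb2 to H2-Eb1, across the class I genes Psmb9, Tap1, Psmb8 and Tap2 as well, and not at Brd2 or Gm50335.

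The shared pattern was summarized as the mean standardized log2 CPM of the 7 tested H2 genes and Cd74. Among the genes outside it, Ciita had a Pearson r of 0.91 with this mean over the 6 tumors. Irf1, the interferon-induced factor that acts on Ciita, had an r of 0.97, and Psmb9, Psmb8, Tap2 and Tap1 had an r of 0.99, 0.94, 0.94 and 0.94. Socs1, an inhibitor of interferon signaling, had an r of 0.85. The receptors and kinases of the interferon gamma signal did not share the pattern, with an r of -0.30 for Ifngr1, -0.65 for Ifngr2, -0.45 for Jak1 and -0.0018 for Jak2. These are descriptions over 6 tumors that share their libraries and come from both groups, and 176 of 19602 genes had an r over 0.9.

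Irf1 was measured at 42.7, 51.4 and 11.2 CPM in PBS tumors and at 21.1, 35.0 and 65.4 CPM in GB2 tumors. Like the class II genes it was lowest in PBS tumor 3 and overlapped between the groups, with a log2 fold change of 0.21 (SE 0.59, adjusted p = 0.933). Ifng, the gene of interferon gamma, had 4, 20 and 0 counts in PBS tumors and 0, 0 and 8 counts in GB2 tumors, and PBS tumor 2 was the only tumor above the floor. The factors that stand on the X and Y boxes did not share the pattern. Rfx5 was measured at 13.3, 18.7 and 19.1 CPM in PBS tumors and at 23.7, 14.2 and 15.2 CPM in GB2 tumors, with PBS tumor 3 among its higher values (r = -0.54).

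The most similar genes outside the lists, by the same r, were 4933412E12Rik (0.99), Zfp641 (0.99), Aipl1 (0.99), H2-Q4 (0.99), Pram1 (0.99), Gm46565 (0.99), Ms4a4b (0.99), Psmb9 (0.99), Cd1d1 (0.98) and H2ac18 (0.98). H2-Q4 and Cd1d1 encode class I and class I-like molecules, and Ms4a4b is a membrane protein known from T cells. H2-Q4 was measured at 61.7, 62.4 and 16.9 CPM in PBS tumors and at 30.3, 51.0 and 54.2 CPM in GB2 tumors. Zfp641 had at most 16 counts in any tumor, so its r rests on few reads. In PBS tumor 3 Pram1 and Ms4a4b had 0 counts, H2ac18 had 10 and Gm46565 had 12. Their r too depends on a value at or under the floor of 12 counts.

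The class II pattern was set beside marker lists of the cells that a tumor piece holds. The summed CPM of the 10 macrophage genes was 76.9, 92.3 and 65.2 in PBS tumors and 258, 254 and 354 in GB2 tumors. All 10 macrophage genes had a higher mean in the GB2 group, 9 of them past the weaker limit that 4.66% of all genes passed, and the groups did not overlap for the sum. edgeR called none of the 10, with adjusted p between 0.166 and 0.700, and DESeq2 called 7, against 1.96% of all genes. The class II genes did not follow this split. The ratio of Cd74 to Adgre1 FPKM, Adgre1 being the gene of the macrophage antigen F4/80, was 63.9, 160 and 22.1 in PBS tumors and 5.49, 14.2 and 10.2 in GB2 tumors, so each GB2 tumor had less Cd74 RNA per Adgre1 RNA than each PBS tumor. The ratio of H2-Ab1 to Adgre1 FPKM was 12.2, 21.4 and 2.39 in PBS tumors and 1.45, 3.02 and 2.68 in GB2 tumors, and here the groups overlapped, with PBS tumor 3 below GB2 tumors 2 and 3. These ratios too were chosen after the values had been seen and are given with no test. The part of the macrophage RNA in the class II values was not tested.

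By summed CPM the T cell list had the same tumor order as Cd74 and H2-Eb1. The sums in PBS tumor 3 and GB2 tumor 1 rest on counts near the floor of 12, so the order of these tumors is uncertain. The 8 genes of the list summed to 2.64, 5.22 and 0.16 CPM in PBS tumors and to 0.19, 1.65 and 3.83 CPM in GB2 tumors. Its 7 tested genes all had a negative log2 fold change, from -1.77 for Cd3e to -0.02 for Trac. None of them passed the weaker limit, and the groups overlapped for all 7. Cd8a had 29, 136 and 4 counts in PBS tumors and 8, 41 and 88 counts in GB2 tumors, and Cd3e was at 0 counts in PBS tumor 3 and at 4 counts in GB2 tumor 1. The sum of the T cell list was lowest in the same tumors as the class II genes, but not each of its genes was, since Cd5 had 0 counts in PBS tumor 2 and 7 in PBS tumor 3. The dendritic cell list summed to between 8.83 and 11.9 CPM in PBS and between 16.3 and 18.6 CPM in GB2 tumors, with Flt3, Xcr1 and Siglech under the floor in all 6 tumors. Of its 7 tested genes 6 had a positive and 1, Batf3, a negative log2 fold change. Itgax alone passed the weaker limit and was called by DESeq2, against 4.66% and 1.96% of all genes. The groups did not overlap for Itgax and Ccr7, against 15.3% of all genes, and overlapped for the other 5. Zbtb46, the gene of the list with the highest mean CPM in both groups, overlapped between the groups. The leukocyte list (Ptprc, Coro1a, Laptm5 and Cytip) summed to 15.5, 19.8 and 6.61 CPM in PBS tumors and to 26.9, 30.0 and 46.3 CPM in GB2 tumors. The fibroblast list summed to between 177 and 348 CPM in PBS and between 593 and 844 CPM in GB2 tumors, and its 6 genes had edgeR adjusted p between 0.186 and 0.262, while DESeq2 called all 6, against 1.96% of all genes. The endothelium list summed to between 38.7 and 50.4 CPM in PBS and between 103 and 116 CPM in GB2 tumors, with 0 of its 6 genes called by edgeR and 4 by DESeq2, against the same 1.96%. The erythroid list went the other way, with 507 to 7473 CPM in PBS and 94.6 to 1271 CPM in GB2 tumors. Its 5 genes were all lower in the GB2 group, with a median log2 fold change of -2.93. The weaker limit was passed by 3 of them, against 4.66% of all genes, and the groups overlapped for all 5. They had edgeR adjusted p between 0.685 and 0.757, with 0 called by DESeq2. The skeletal muscle list summed to between 77.2 and 136 CPM in PBS and between 140.2 and 183 CPM in GB2 tumors, with 0 of its 5 genes called by edgeR or, at a fold of 2 or more, by DESeq2. The keratinocyte and skin list overlapped between the groups, with 20.9 to 83.8 CPM in PBS and 66.8 to 115 CPM in GB2 tumors. No list was tested as a whole. The part of any of these cell types in the class II values was not tested.

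**Figure D4:**
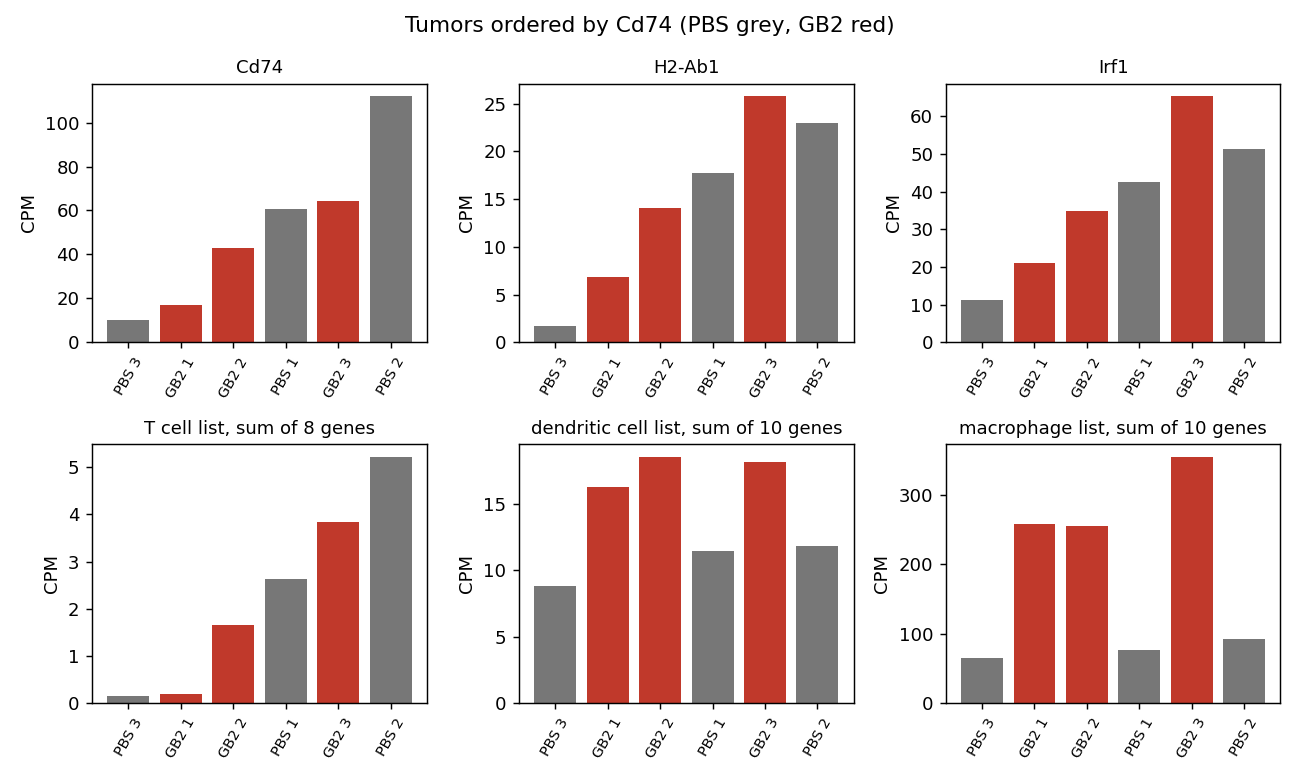
CPM of Cd74, H2-Ab1 and Irf1 and summed CPM of 3 marker lists, with the tumors ordered by Cd74 from low to high in each panel (PBS grey, GB2 red). H2-Ab1, Irf1 and the T cell list climb with Cd74 apart from the exchange of GB2 tumor 3 and PBS tumor 2 at the top for H2-Ab1 and Irf1, while the sums of the macrophage and dendritic cell lists are higher in each GB2 than in each PBS tumor. Of the dendritic cell list, 5 of 7 tested genes overlap between the groups, which do not overlap for 15.3% of all genes tested.

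Other genes of the class II pathway were taken from a list of 37, of which 35 passed the filter. H2-Ea and Ifng did not. None was called by edgeR, 24 had a log2 fold change above 0 and 11 below, and their median was 0.19. The weaker limit was passed by 6 of the 35, all higher in GB2 tumors, against 4.66% of all genes in either direction. They were Ctss, Spi1, Cd40, Cd86, Cd83 and Irf8. DESeq2 called 3 of the 35, Ctss, Spi1 and Cd40, against 1.96% of all genes. The groups did not overlap for 12 of the 35, 9 higher and 3 lower in GB2 tumors, against 15.3% of all genes.

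Ctss encodes cathepsin S, the protease that makes the last cuts in the invariant chain. It was measured at 18.1, 18.3 and 9.25 CPM in PBS tumors and at 38.5, 52.8 and 67.3 CPM in GB2 tumors. Each GB2 tumor lay above each PBS tumor, with a log2 fold change of 1.80 (SE 0.33). The edgeR adjusted p was 0.193 and that of DESeq2 was 0.000139, and over the alternatives it ran from 0.000139 to 0.755. The other endosomal enzymes named here had smaller fold changes. Lgmn, an asparaginyl endopeptidase, had a log2 fold change of 0.60 (edgeR adjusted p = 0.477) and Ctsl, cathepsin L, of 0.19 (edgeR adjusted p = 0.801), while Ifi30, the reductase of the endosome, had -0.33 (edgeR adjusted p = 0.757).

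Spi1, the myeloid factor PU.1, was measured at 1.81, 1.89 and 1.12 CPM in PBS tumors and at 4.89, 2.92 and 6.03 CPM in GB2 tumors. The groups did not overlap, and the log2 fold change was 1.52 (SE 0.38, edgeR adjusted p = 0.317, DESeq2 adjusted p = 0.0131, range over the alternatives 0.0131 to 0.891). Irf8, its partner in myeloid cells, had a log2 fold change of 1.14 (SE 0.46, edgeR adjusted p = 0.700), and its groups overlapped. With limma on log2(FPKM + 1) the values were 0.77 for Spi1 and 0.40 for Irf8. Ctss and Spi1 thus separated the groups as the macrophage list did, and the part of macrophage RNA in them was not tested.

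The costimulators of the presenting cell were low in all tumors. Cd40 had 8, 5 and 15 counts in PBS tumors and 60, 49 and 159 counts in GB2 tumors, with a log2 fold change of 2.91 (SE 0.68, edgeR adjusted p = 0.281, DESeq2 adjusted p = 0.0091, range over the alternatives 0.0091 to 0.891). The PBS counts of 8 and 5 are under the floor of 12, and the log2 fold change was 2.21 without GB2 tumor 3 and, on the compressed scale of limma on log2(FPKM + 1) and log2(FPKM + 0.1), 0.31 and 1.44. Cd86 was measured at 0.49, 0.33 and 0.11 CPM in PBS tumors and at 0.62, 0.79 and 1.54 CPM in GB2 tumors (log2 fold change 1.67, edgeR adjusted p = 0.676). Its 8 counts in PBS tumor 3 are under the floor, and limma on log2(FPKM + 1) and log2(FPKM + 0.1) gave 0.22 and 1.01. Cd83, which protects class II molecules from removal, was measured at 0.81, 0.64 and 0.55 CPM in PBS tumors and at 0.86, 2.16 and 1.92 CPM in GB2 tumors (log2 fold change 1.30, edgeR adjusted p = 0.586, and 0.38 with limma on log2(FPKM + 1)). Cd40, Cd86 and Cd83 are among the 12 pathway genes, given above, whose groups did not overlap. Another is Marchf1, listed with Cd83 under the turnover of class II molecules at the surface. It was measured at 0.63, 0.54 and 0.17 CPM in PBS tumors and at 1.04, 0.66 and 1.12 CPM in GB2 tumors (log2 fold change 1.08, edgeR adjusted p = 0.757). Marchf8, listed with them, overlapped between the groups (log2 fold change -0.06). Cd80 overlapped between the groups, with a log2 fold change of 0.77 (edgeR adjusted p = 0.757).

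The factors of the X and Y boxes had log2 fold changes of 0.06 for Rfx5, -0.62 for Rfxap, -0.12 for Rfxank, 0.10 for Nfya, -0.01 for Nfyb, 0.25 for Nfyc and -0.22 for Creb1. The groups did not overlap for 1 of the 7, near the 15.3% of all genes. It was Rfxap, at 27.3, 20.8 and 17.6 CPM in PBS tumors and at 13.7, 14.0 and 15.1 CPM in GB2 tumors (edgeR adjusted p = 0.619). On the receiving side, Cd4 had a log2 fold change of 0.07, and Lag3, another receptor for class II molecules, of -0.68 (edgeR adjusted p = 0.757). Mif, the ligand of surface Cd74, was measured between 559 and 624 CPM in PBS and between 411 and 509 CPM in GB2 tumors, and its groups did not overlap (log2 fold change -0.37, edgeR adjusted p = 0.752).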

How the data were processed

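Poly-A selected, stranded, paired-end libraries were made from 6 tumors, and replicates were not pooled. The submitters' processing notes name cutadapt 1.9, HISAT2 2.2.1, StringTie 2.1.6 and mm10. The authors deposited an estimated count for each gene and tumor, as whole numbers without scaling between libraries. They are accompanied by FPKM, for which the authors divided by the length of the transcript and the size of the library. Of 31999 gene IDs shared with GENCODE vM21 on GRCm38, 595 (1.86%) had the same start and end, and none of the 10 class II genes did, so positions are those of the table and promoters those of GRCm38.p6.

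The counts were fitted with edgeR 4.0.16 in R 4.3.3: filterByExpr with a minimum count of 10 (19602 genes), TMM factors (0.914 to 1.04), glmQLFit and glmQLFTest, with Benjamini-Hochberg adjustment over all genes tested. A call needed an adjusted p below 0.05 and a fold of 2 or more, the limits of the study's methods. Log2 CPM used a prior count of 2. Alternatives were DESeq2 1.42.0, limma 3.58.1 on log2(FPKM + 1) or log2(FPKM + 0.1), which kept genes with a mean of at least 0.1 FPKM, other scaling factors and filters, counts divided by 4, the tumor number as a block and each tumor left out. The computations were tested on simulated counts.

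All 10 class II genes, the pathway and marker lists, the genes between H2-Oa and H2-Eb1 and the 10 genes most like the class II pattern could be named, and some of the listed genes are not reported here. The genes and lists were chosen with earlier results of these data known. Total counts without TMM factors gave floors of 0.143 to 0.185 CPM for 12 counts, taken as about 3 read pairs. With TMM factors, as in the CPM values printed here, 12 counts were 0.203 CPM in PBS tumor 1 and 0.141 CPM in GB2 tumor 3. Intervals and floors on counts cover counting error only. Tumors of the same group varied by 40.5% per gene, by the common dispersion. No batch is named in the labels, and none was tested.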

Additional observations from a re-analysis of the deposited data

How the results depend on the processing

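No class II gene was called under any alternative. Genes called over the whole table numbered 385 with DESeq2 and 0 with the other alternatives. The cause of the difference was not tested. The median log2 fold change of the class II genes was 0.16 and 0.43 with limma on log2(FPKM + 1) and log2(FPKM + 0.1), where H2-Ob is not tested, and ran from -0.57 to 0.55 over the fits that left out 1 tumor, lowest without PBS tumor 3 and highest without PBS tumor 2.

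The sign changed for H2-Aa (0.29) and H2-Eb1 (0.14) with limma on log2(FPKM + 1), and for H2-Aa (0.57), H2-DMb2 (0.19) and H2-Eb1 (0.34) with limma on log2(FPKM + 0.1). Leaving out each tumor gave log2 fold changes from -0.60 to 0.94 for H2-Aa, -0.43 to 0.69 for H2-Ab1, -0.91 to 0.55 for H2-Eb1, -0.22 to 1.01 for H2-DMa, -1.03 to 0.17 for H2-DMb1, -0.85 to 0.36 for H2-DMb2, -0.72 to 0.65 for H2-Ob, -1.06 to 0.23 for Cd74 and 0.20 to 2.25 for Ciita. DESeq2, RLE and upper-quartile factors, no filter, a minimum count of 50 and counts divided by 4 changed no sign. At a minimum count of 50 H2-DMb2 and H2-Ob were not tested, and with counts divided by 4 H2-Ob was not.

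The tumor numbers share only a number: deviations of tumors with the same number correlated at 0.03, 0.15 and -0.24 across genes. With the number as a replicate block 0 genes were called, the median of the class II genes was 0.28, and the sign changed for H2-Aa (0.15) and H2-DMb2 (0.36). With 3 tumors per group and this spread, the 95% intervals of the class II genes reach beyond a 2-fold change in both directions, so such changes were not detectable here.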
